A study of Mus musculus with 12 samples.

Results

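Transcripts for glucose breakdown were followed through PD-1+CD44+CD8+ T cells of lupus-prone mice. The set holds 33 genes of 18992 measured, chosen by name. It covers glucose uptake, glycolysis, the fate of pyruvate and lactate, the regulators of the pathway, the pentose phosphate pathway, and *Galk1*, which phosphorylates galactose. Glycolysis splits glucose to pyruvate and yields ATP, and the pentose phosphate pathway branches off near its start to make NADPH and ribose for nucleotides. Activated T cells take up more glucose and convert much of the pyruvate to lactate even when oxygen is present, whereas resting and memory cells rely more on mitochondria. Hypoxia-inducible factor and Myc are known activators of many of these genes.

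All cells came from NZB/W F1 mice, the first-generation cross of NZB and NZW mice, whose females develop antibodies to DNA and nephritis as they age. The labels of these samples name no transgene and no treatment, and do not give the number of mice pooled. Spleens were taken at 12 weeks (12W spleen, called young below) and 28 weeks (28W spleen, called older), and kidneys at 28 weeks (28W kidney), with cells of each sorted as PD-1+CD44+CD8+. Where 3 values stand without group names, they follow this order. No group of another strain was analysed here, so age and disease cannot be told apart. Kidneys were digested with collagenase and spun through Percoll, steps that are not described for spleen, so organ and preparation cannot be told apart either. For 28W spleen the labels disagree, with 12 weeks in the age entry and 28W in the titles, and the titles were followed.

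The labels list 4 samples for each group, without saying whether these are separate animals or sequencing lanes. The tables pool them, which leaves 1 library per group, no replicate and no test. The 3 libraries held 6481 to 7135 cells in 10 to 12 clusters made by the authors, with 29937384 to 34742303 unique molecular identifiers (UMIs, 1 per captured transcript). Levels are UMIs per 1000000 of a library or cluster (CPM), and intervals in parentheses are 95% limits that cover counting error only. Libraries shared 52 to 66 cell barcodes, 0.802% to 1.02% of the smaller library. The 6 CD8 T cell markers summed to 4943, 4657 and 5997 CPM, and *Cd4* was at 0.345 to 3.94 CPM. Not every cluster matched the sort. B cell, myeloid or tubule transcripts marked cluster 3 of 12W spleen, clusters 8 and 10 of 28W spleen, and clusters 7, 8 and 12 of 28W kidney. Their CD8 T cell markers were lowest in cluster 10 of 28W spleen at 1123 CPM and cluster 12 of 28W kidney at 1370 CPM. In cluster 3 of 12W spleen erythroid transcripts were at 37158 CPM, above its B cell list at 2936 and myeloid list at 302. In cluster 8 of 28W spleen erythroid transcripts were at 40824 CPM and neutrophil transcripts at 22397, above those lists at 748 and 915. Clusters with the highest proliferation markers, called cycling below, were cluster 10 of 12W spleen, 6 of 28W spleen and 11 of 28W kidney. Main results that rest on such clusters are given with and without them.

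As a whole the set took nearly the same share of transcripts in every library, 0.581% in the young spleen, 0.565% in the older spleen and 0.587% in kidney. The differences lay in single genes and between clusters of 1 library, where most other genes differed as well. By age (28W spleen over 12W spleen), 26 of 33 genes stayed within 1.5-fold, 2 were higher by at least that and 5 lower. By organ (28W kidney over 28W spleen), 27 stayed within 1.5-fold, 5 were higher and 1 lower. Of the 27 members with at least 10 CPM in either spleen library, 0 were higher and 3 lower, against 4.04% and 3.34% of all 7434 genes at that level. Of the 25 members with at least 10 CPM in either 28W library, 3 were higher and 1 lower, against 11.3% and 4.24% of 7686 genes. The median log2 ratio of the 33 genes was -0.12 by age, beside -0.10 for all genes, and 0.11 by organ, beside 0.08. Cluster levels of the compared libraries overlapped for 33 of 33 members in both comparisons, and 0.0269% of all genes by age and 0.117% by organ did not overlap.

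**Figure D1:**
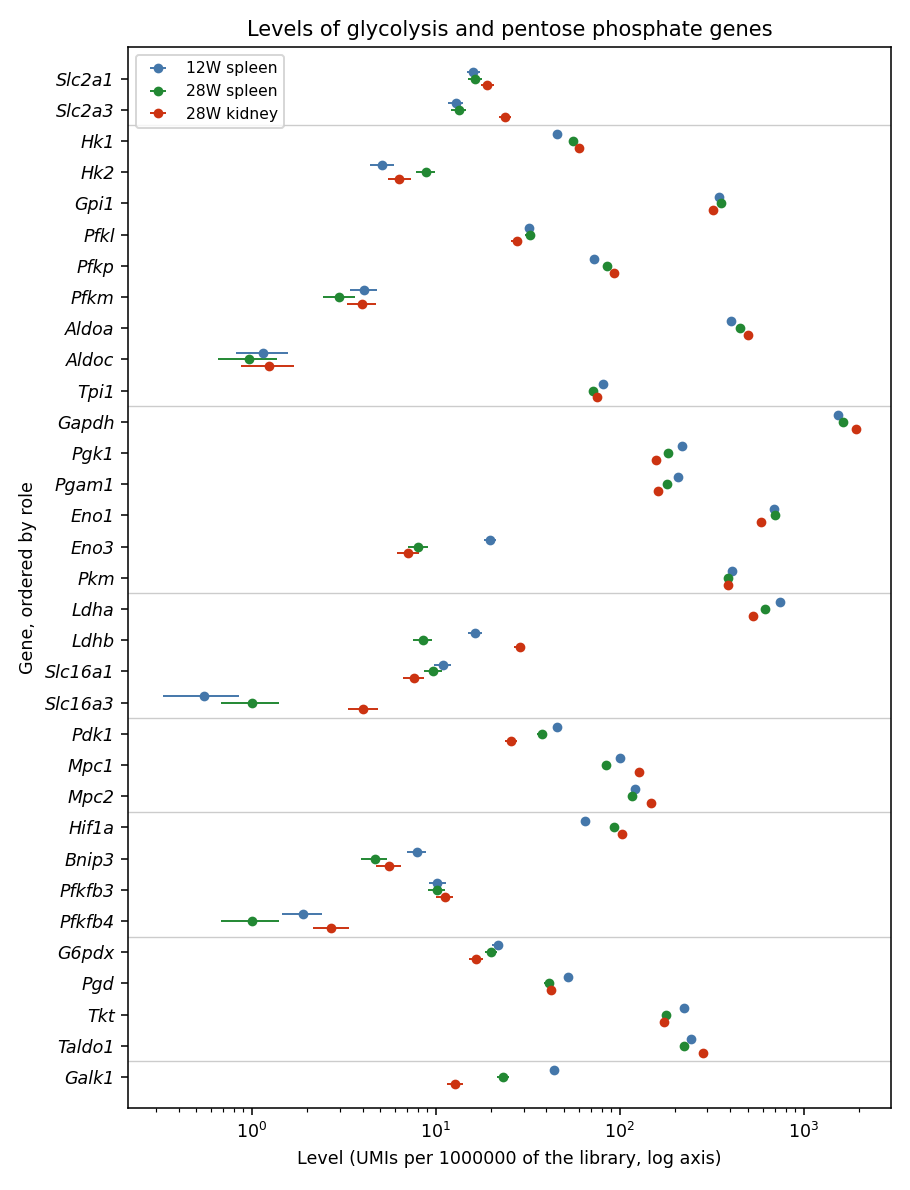
Level of each of the 33 genes in the libraries of both spleens and of kidney, in UMIs per 1000000 on a log axis, ordered by role from glucose uptake at the top to *Galk1* at the bottom. Points are the single library of each group and bars are exact Poisson 95% limits, so a reader sees that most genes sit close together in the 3 libraries, while *Ldhb*, *Slc16a3*, *Eno3* and *Galk1* spread apart.

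The promoters of *Ldha*, *Pgk1*, *Pgam1*, *Gapdh* and *Galk1* are shown as examples. Transcripts of these 5 were among the 15 members of at least 10 CPM that peaked in the same cluster of 12W spleen, as described further on. Windows of the others are not shown, so the 5 do not stand for all 15. Sequences are the 250 bases before the RefSeq start on the strand of the gene (RefSeq, GRCm38.p6), 5′ to 3′, and an entry was found for 32 of 33 members. *Slc2a3* had none. Capitals mark ACGTG and GCGTG, the core of the hypoxia response element, on either strand, where CACGTG, the E-box bound by Myc, always holds ACGTG on both strands. The windows are chr7:46845554-46845803 (plus strand) for *Ldha*, chrX:106186850-106187099 (plus) for *Pgk1*, chr19:41911621-41911870 (plus) for *Pgam1*, chr6:125165774-125166023 (minus) for *Gapdh* and chr11:116012720-116012969 (minus) for *Galk1*.
Ldha: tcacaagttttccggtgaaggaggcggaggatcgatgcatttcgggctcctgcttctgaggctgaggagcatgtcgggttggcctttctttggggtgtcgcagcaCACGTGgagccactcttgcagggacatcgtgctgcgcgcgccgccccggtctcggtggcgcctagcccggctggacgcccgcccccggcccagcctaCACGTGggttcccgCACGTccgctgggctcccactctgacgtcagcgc
Pgk1: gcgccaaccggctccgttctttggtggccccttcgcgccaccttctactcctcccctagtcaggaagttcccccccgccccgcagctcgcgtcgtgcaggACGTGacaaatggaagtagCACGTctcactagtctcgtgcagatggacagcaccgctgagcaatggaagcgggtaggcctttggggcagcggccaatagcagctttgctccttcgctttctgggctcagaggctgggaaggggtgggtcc
Pgam1: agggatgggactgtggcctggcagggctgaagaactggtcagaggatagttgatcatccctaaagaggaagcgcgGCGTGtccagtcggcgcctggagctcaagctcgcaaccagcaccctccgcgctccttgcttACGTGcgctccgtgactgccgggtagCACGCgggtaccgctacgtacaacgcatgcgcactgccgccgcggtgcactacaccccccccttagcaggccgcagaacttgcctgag
Gapdh: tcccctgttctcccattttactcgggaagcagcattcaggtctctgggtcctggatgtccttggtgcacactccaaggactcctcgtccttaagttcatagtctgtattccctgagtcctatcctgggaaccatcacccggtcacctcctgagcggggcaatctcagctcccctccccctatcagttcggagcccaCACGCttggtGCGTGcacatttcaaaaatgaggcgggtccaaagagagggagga
Galk1: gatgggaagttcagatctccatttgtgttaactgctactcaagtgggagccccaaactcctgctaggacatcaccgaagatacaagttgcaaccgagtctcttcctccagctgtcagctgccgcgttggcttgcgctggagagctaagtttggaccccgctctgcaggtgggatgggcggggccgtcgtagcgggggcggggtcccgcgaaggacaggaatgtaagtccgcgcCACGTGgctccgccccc

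*Ldha* had 5 core matches in the window shown, and those that begin 145 and 144 and again 48 and 47 bases before the start are the strands of E-boxes. A second RefSeq start of *Ldha*, with the window chr7:46846832-46847081, had 1 match and no E-box. *Pgk1* and *Gapdh* had 2 each and *Pgam1* 3, and the 2 matches of *Galk1*, 17 and 16 bases before the start, are the strands of 1 E-box. *Tpi1*, which shared the peak in cluster 7 of 12W spleen, had no match in its window. Over the set, 38 of 47 windows (80.9%) held ACGTG or GCGTG, beside 38.6% of 32851 promoters and 58.4% of 7814 promoters of genes with at least 10 CPM in a library. For ACGTG alone the share was 36.2% against 23.2% of the promoters of such genes, for GCGTG 57.4% against 46.6%, and for CACGTG 14.9% against 8.82%. Several windows of 1 gene overlap, and a match is a run of letters and not a bound site.

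Glucose enters through *Slc2a1* and *Slc2a3*, the transporters GLUT1 and GLUT3. *Slc2a1* was at 16.0 CPM (14.7 to 17.4) in the young spleen, 16.4 (15.0 to 17.8) in the older spleen and 19.1 (17.5 to 20.7) in kidney. *Slc2a3* (GRCm38 chr6:122727809-122801640, minus strand) was at 12.8 CPM (11.7 to 14.1), 13.3 (12.1 to 14.6) and 23.8 (22.1 to 25.6). The spleens lay within counting error of each other for both genes, and kidney was higher for *Slc2a3*, with a log2 ratio of 0.84 (0.67 to 1.02). That ratio was 0.999 without the clusters that carried other cell-type markers, 0.80 without cycling clusters and 0.71 without the highest cluster of each library, but fell inside 1.5-fold with clusters weighted equally (0.45) or 10 CPM added (0.54). *Slc2a3* therefore took 55.5% of the UMIs of the pair in kidney (52.8 to 58.3), against 44.5% in 12W spleen (41.4 to 47.7) and 44.8% in 28W spleen (41.7 to 48.1). No other pair or trio of isoenzymes among 9 such sets changed which gene was counted most between libraries.

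The first steps of glycolysis trap and split glucose. Hexokinases *Hk1* and *Hk2* phosphorylate it, *Gpi1* makes fructose 6-phosphate, the phosphofructokinases *Pfkl*, *Pfkp* and *Pfkm* commit it, and the aldolases *Aldoa* and *Aldoc* with *Tpi1* yield triose phosphates. *Hk2* was at 5.12 CPM (4.40 to 5.93) in the young spleen, 8.81 (7.81 to 9.90) in the older spleen and 6.35 (5.48 to 7.32) in kidney. Its log2 ratio by age was 0.78 (0.51 to 1.06), which was 0.32 without cycling clusters. *Hk1*, the more counted hexokinase, was at 45.7, 55.7 and 60.2 CPM. Of the other members of this group, *Aldoa* was at 405, 451 and 501 CPM and *Pfkp* at 72.9, 84.9 and 92.5, each highest in kidney and lowest in 12W spleen. *Gpi1*, *Pfkl*, *Pfkm*, *Aldoc* and *Tpi1* had log2 ratios between -0.44 and 0.05 by age and between -0.24 and 0.41 by organ. Summed, the 9 genes were at 992 CPM in the young spleen, 1064 in the older spleen and 1089 in kidney. *Aldoa* is also listed under another identifier with 1 to 7 UMIs per library, which was left out.

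The second part of the pathway harvests energy. *Gapdh* makes NADH, *Pgk1* and *Pkm* make ATP, and *Pgam1*, *Eno1* and *Eno3* carry out the steps between. *Gapdh* (chr6:125161715-125166467, minus strand) was at 1536, 1633 and 1919 CPM, which is a log2 ratio by age of 0.09 (0.07 to 0.11) and by organ of 0.23 (0.22 to 0.25). *Pgk1* was at 217, 182 and 158 CPM and *Pgam1* at 209, 179.6 and 162 CPM, both lowest in kidney. Their log2 ratios by organ, -0.21 and -0.15, turned to 0.05 and 0.21 without cycling clusters. The age ratio of *Gapdh* likewise turned to -0.16. *Eno1* was at 687, 694 and 587 CPM and *Pkm* at 410, 386 and 386 CPM. The exception was *Eno3*, the muscle-type enolase (chr11:70657202-70662513), at 19.8 CPM (18.4 to 21.3) in the young spleen, 8.06 (7.10 to 9.10) in the older spleen and 7.05 (6.13 to 8.07) in kidney. Its log2 ratio by age, -1.30 (-1.51 to -1.09), was the lowest of the 33. It was -0.83 without the highest cluster of each library and -1.95 without cycling clusters. By organ the log2 ratio of *Eno3* was -0.19, and -0.67 without clusters of other cell-type markers. Summed, this group hardly differed, at 3078, 3083 and 3218 CPM, but *Gapdh* was the largest part of each sum. The median log2 ratio of the 6 genes was -0.15 by age and -0.17 by organ. Reads of *Eno1* may be shared with its near-identical copy *Eno1b*, which was at 10.7 to 12.3 CPM.

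Lactate dehydrogenase turns pyruvate to lactate or back, and *Slc16a1* and *Slc16a3* (MCT1 and MCT4) move lactate across the membrane. *Ldha* (chr7:46841475-46855627), whose product favours lactate, was at 745 CPM in the young spleen, 619 in the older spleen and 528 in kidney, which is a log2 ratio by age of -0.27 (-0.29 to -0.24) and by organ of -0.23 (-0.26 to -0.20). *Ldhb* (chr6:142490249-142507957, minus strand), the form typical of heart and kidney, was at 16.4 CPM (15.0 to 17.8), 8.49 (7.51 to 9.57) and 28.7 (26.8 to 30.6). It was thus lower in the older spleen, by a log2 ratio of -0.94 (-1.16 to -0.73), and higher in kidney, by 1.75 (1.56 to 1.96). Kidney cluster 7, described further on, held 82.2% of kidney *Ldhb* UMIs. *Slc16a3* was at 0.547 CPM (0.329 to 0.854), 0.999 (0.683 to 1.41) and 4.04 (3.35 to 4.83). Those levels rest on 19, 32 and 121 UMIs. The organ difference of *Slc16a3* had a log2 ratio of 2.02 (1.44 to 2.63) and was 2.30 without clusters of other cell-type markers. *Slc16a1* was at 10.9, 9.65 and 7.58 CPM, so *Slc16a3* took 4.77%, 9.38% and 34.8% of the UMIs of the pair. The organ log2 ratio of *Slc16a1*, -0.35, was -0.71 without clusters of other cell-type markers.

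Pyruvate reaches mitochondria through the carrier made of *Mpc1* and *Mpc2*, and *Pdk1* holds back its oxidation by inhibiting pyruvate dehydrogenase. The carrier genes and the inhibitor differed by organ in opposite directions. *Mpc1* was at 99.8 CPM in the young spleen, 83.9 in the older spleen and 127 in kidney, and *Mpc2* at 121, 116 and 148 CPM. *Pdk1* was at 45.8 CPM (43.6 to 48.1), 37.6 (35.5 to 39.8) and 25.6 (23.8 to 27.5). By organ the log2 ratios were 0.60 (0.52 to 0.67) for *Mpc1*, 0.35 (0.28 to 0.41) for *Mpc2* and -0.55 (-0.69 to -0.42) for *Pdk1*, of which *Mpc1* alone passed 1.5-fold. Without clusters of other cell-type markers they were 0.46, 0.18 and -0.49.

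Among the regulators, *Hif1a* encodes the oxygen-regulated subunit of hypoxia-inducible factor, *Pfkfb3* and *Pfkfb4* set the level of an activator of phosphofructokinase, and *Bnip3* is a hypoxia-induced gene of mitophagy. *Hif1a* was at 65.0 CPM (62.4 to 67.8) in the young spleen, 92.5 (89.2 to 95.9) in the older spleen and 103 (99.1 to 106) in kidney. Its log2 ratio by age was 0.51 (0.43 to 0.59), just inside 1.5-fold, and lay between 0.45 and 0.61 under each alternative computed, the latter, after scaling to the median gene, being past 1.5-fold. *Pfkfb3* was level at 10.2, 10.1 and 11.2 CPM. *Bnip3* was at 7.92 CPM (7.01 to 8.91), 4.65 (3.94 to 5.46) and 5.58 (4.76 to 6.49), and *Pfkfb4* at 1.90 (1.47 to 2.42), 0.999 (0.683 to 1.41) and 2.71 (2.15 to 3.36). Both were lower in 28W than 12W spleen, with log2 ratios of -0.77 (-1.06 to -0.47) and -0.93 (-1.58 to -0.30). *Pfkfb4* was higher in kidney by 1.44 (0.83 to 2.08), which was 0.67 without clusters of other cell-type markers. It was 0.28, inside 1.5-fold, when kidney clusters 2 and 11, which carried erythroid transcripts, were left out too. Of 13 other genes known as targets of hypoxia-inducible factor, 10 reached 10 CPM in a compared library. Of these, 0 were higher and 2 lower by 1.5-fold with age, beside 4.04% and 3.34% of all genes, and 1 was higher and 0 lower by organ, beside 11.3% and 4.24%. The higher gene was *Ndrg1*, with 83.4% of its kidney UMIs in cluster 7, which carried tubule markers. All 13 summed to 813, 619.9 and 757 CPM.

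In the pentose phosphate pathway, *G6pdx* and *Pgd* make NADPH, and *Tkt* and *Taldo1* rearrange sugars back towards glycolysis. All 4 stayed within 1.5-fold in both comparisons. *Tkt* was at 223, 177 and 175 CPM and *Pgd* at 52.2, 41.1 and 42.5 CPM, highest in the young spleen. *Taldo1* (chr7:141392199-141402968) was at 243 CPM (238 to 248), 224 (219 to 229) and 284 (278 to 290). *G6pdx*, the entry step, was at 21.7, 20.1 and 16.6 CPM.

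*Galk1* (chr11:116008457-116012719, minus strand) was lower in each library than in the one before. It was at 43.9 CPM (41.7 to 46.1) in the young spleen, 23.2 (21.5 to 24.9) in the older spleen and 12.8 (11.5 to 14.1) in kidney, with log2 ratios of -0.92 (-1.05 to -0.79) and -0.86 (-1.04 to -0.68). A single cluster supplied most of the spleen signal, with 64.0% of *Galk1* UMIs in cluster 7 of 12W spleen and 69.1% in cluster 6 of 28W spleen. Without cycling clusters, which removes the latter and not the former, the ratios became -2.33 by age and 0.40 by organ. Without the highest cluster of each library they were -1.04 and 0.41, so the organ difference turned.

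**Figure D2:**
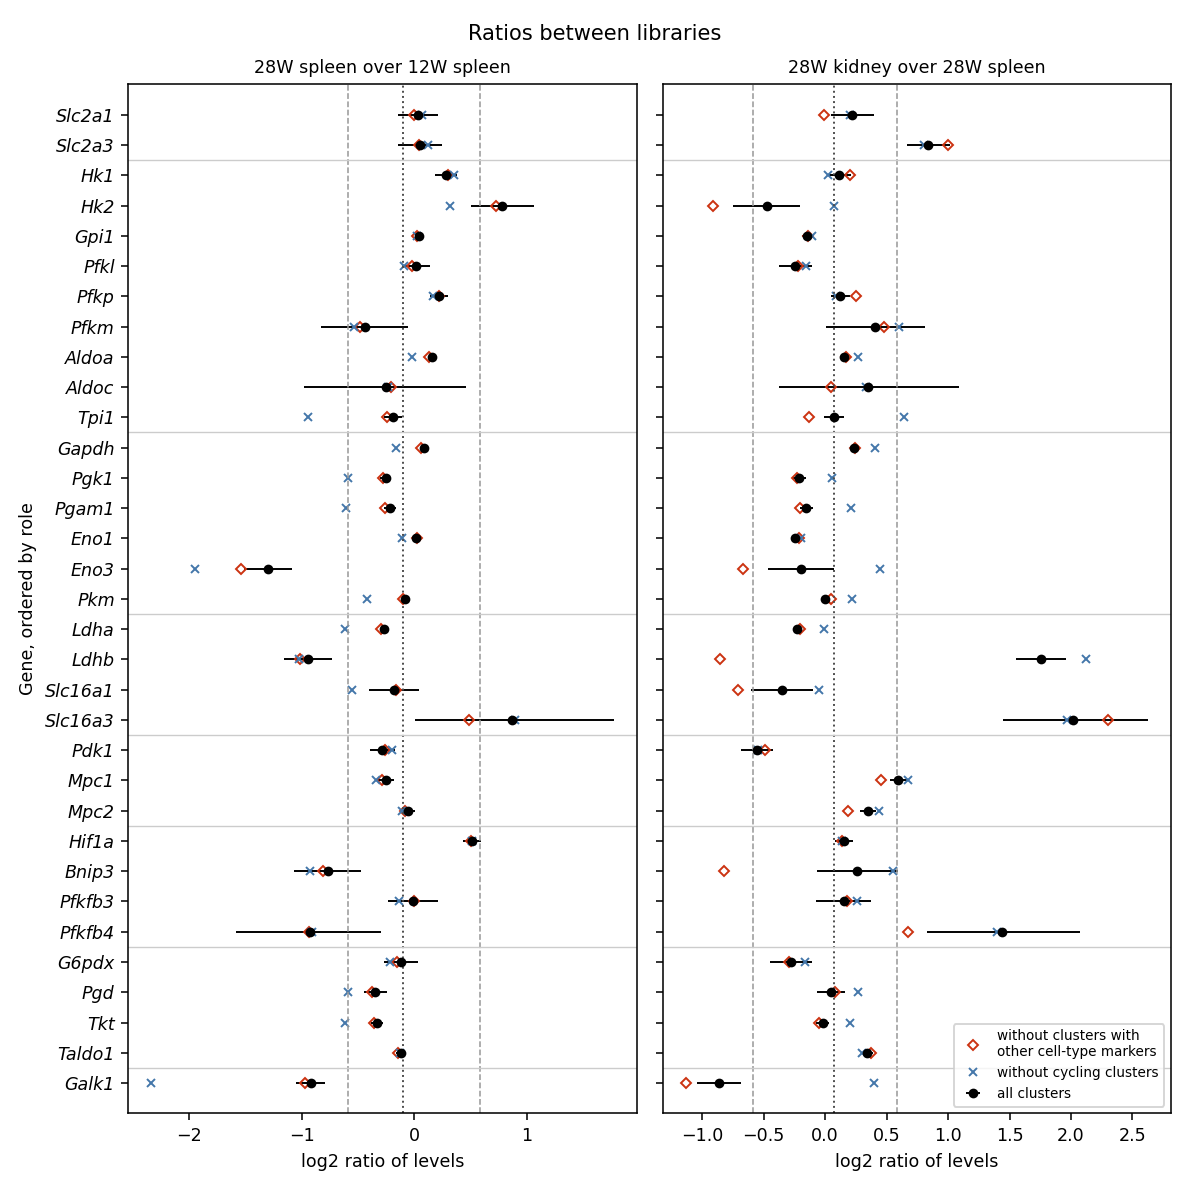
Log2 ratio of levels for each gene, 28W spleen over 12W spleen on the left and 28W kidney over 28W spleen on the right. Black points with exact 95% counting intervals use all clusters, diamonds leave out clusters with other cell-type markers, crosses leave out cycling clusters, dashed lines mark 1.5-fold and dotted lines the median of all genes. *Ldhb* by organ moves from 1.75 to -0.85 at the diamond, and *Galk1* by organ from -0.86 to 0.40 at the cross.

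Within a library the same genes spanned a wide range between clusters, as most genes did. A range from the lowest to the highest of many clusters is not comparable with a ratio of pooled libraries. Clusters were made by the authors from these transcripts as well, so levels by cluster are a description. In 12W spleen the highest cluster had at least 3 times the lowest for 20 of the 27 members with 10 CPM or more, beside 70.6% of all genes at that level. The counts were 18 of 24 in 28W spleen, beside 64.2%, and 21 of 25 in 28W kidney, beside 63.4%.

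Cluster 7 of 12W spleen stood at the top of the pathway. It held 372 cells, 5.40% of the library, yet 14.4% of its UMIs and 27.1% of the UMIs of the 33 genes. Its cells averaged 13406 UMIs, with 0.612% of them mitochondrial. Of the 27 members with at least 10 CPM in the library 15 had their highest level there, beside 21.2% of all genes at that level. *Ldha* was at 1956 CPM in cluster 7 and between 334 and 889 in the other 9 clusters, with a median over clusters of 468. *Gapdh* was at 2966 CPM against a median of 1158, *Pgam1* at 555 against 128, *Pkm* at 878 against 307 and *Tkt* at 442 against 162. Among the 15, the highest and lowest clusters were farthest apart in ratio for *Galk1*, at 196 CPM against 7.43 in cluster 4, *Eno3*, at 61.6 against 3.51 in cluster 8 on 1 UMI, and *Tpi1*, at 279.5 against 17.5 in cluster 4. The 5 genes whose promoters are shown were all among the 15. Together the genes of lower glycolysis and lactate reached 7963 CPM, ahead of cluster 10 at 5332 and cluster 9 at 4921, with the other 7 clusters between 1187 and 3392. This was not the cycling cluster, as its proliferation list was at 478 CPM against 6371 in cluster 10, where 2 of the 27 were highest, beside 7.24% of genes. Nor were all members raised there, since *Slc2a3* at 6.22 CPM, *Hk1* at 21.5 and *Pdk1* at 25.5 had their lowest level of the library in cluster 7. *Hk2* was instead raised there, at 17.8 CPM against 5.12 in the library. It took 45.4% of the UMIs of both hexokinases in cluster 7, against 10.1% in the library. CD8 T cell markers were lowest in this cluster too, at 2885 CPM, while its B cell list was at 31.1 CPM and its myeloid list at 9.22.

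In the 28W libraries the summed lower glycolysis genes were highest in a cycling cluster. Other groups peaked elsewhere in kidney, upper glycolysis in cluster 1 (1321 CPM), lactate genes in cluster 7 (934) and pentose phosphate genes in cluster 12 (1047). In 28W spleen, cluster 6 (528 cells, 12208 UMIs per cell, proliferation list 3170 CPM) held 20.1% of UMIs and 32.6% of those of the set. It was highest for 10 of 24 members with at least 10 CPM, beside 16.9% of genes, with *Gapdh* at 3035 CPM, *Ldha* at 1160, *Eno1* at 939 and *Galk1* at 79.6. In 28W kidney, cluster 11 (359 cells, 11404 UMIs per cell, proliferation list 9637 CPM) was highest for 6 of 25 such members, beside 17.2%. *Gapdh* was at 3330 CPM there, *Ldha* at 833, *Eno1* at 813 and *Pkm* at 647. Erythroid transcripts were also present in that cluster, at 1809 CPM, and their part was not tested. Kidney cluster 1 came next, at 4841 CPM for lower glycolysis and lactate genes against 6086 in cluster 11. This largest kidney cluster (900 cells, CD8 T cell markers 7824 CPM, proliferation list 987 CPM) had *Gapdh* at 2556 CPM, *Aldoa* at 638, *Ldha* at 691 and the highest *Gpi1* and *Pfkp* of the library, at 394 and 119 CPM.

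**Figure D3:**
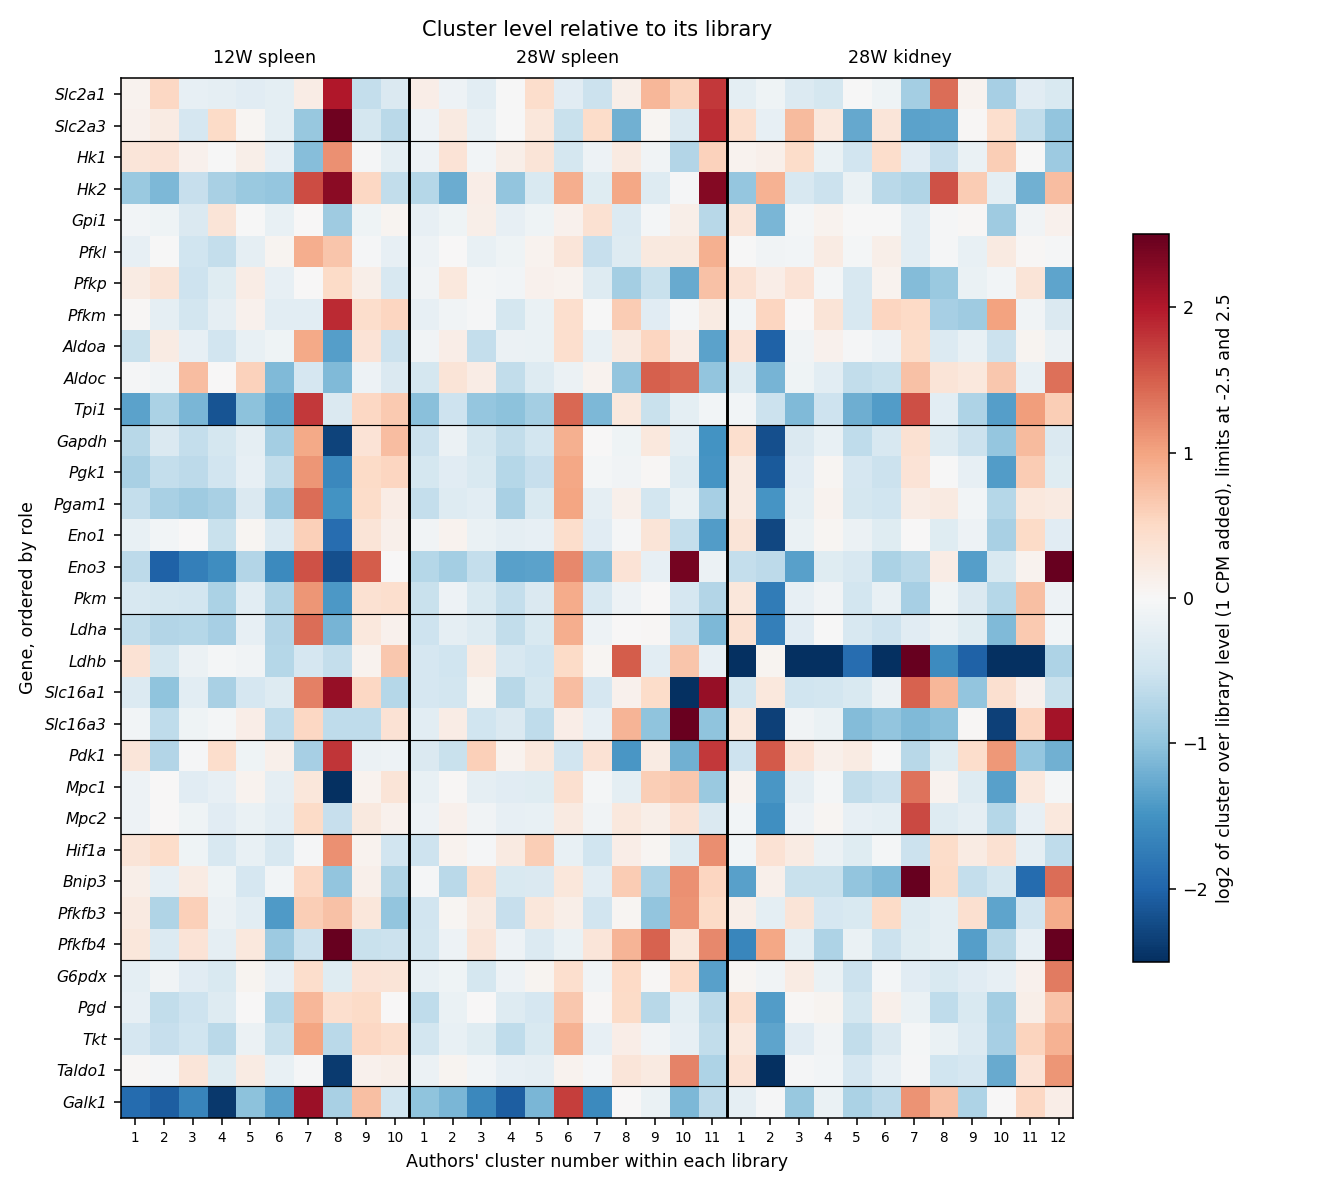
Heat map of the 33 genes (rows, by role) over the 33 clusters (columns, by library and cluster number). Colour is the log2 of the cluster level over its library level after adding 1 CPM, red higher and blue lower, with limits at -2.5 and 2.5. Cluster 7 of 12W spleen and cluster 6 of 28W spleen are red through lower glycolysis, and cluster 2 of 28W kidney is blue there.

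Glucose uptake and the enzymes parted in the clusters with little RNA and much mitochondrial RNA. These were cluster 8 of 12W spleen (928 UMIs per cell, 8.98% mitochondrial), cluster 11 of 28W spleen (1288 UMIs, 6.64%) and cluster 2 of 28W kidney (1200 UMIs, 10.8%). They were lowest for 12 of 27, 12 of 24 and 13 of 25 members with at least 10 CPM, beside 21.1%, 19.1% and 26.3% of genes, and these were mostly enzymes. *Gapdh* was at 309, 581 and 416 CPM in them, *Eno1* at 183, 264 and 119.9 and *Aldoa* at 154, 177 and 123. In the spleens the same clusters were highest for other members. *Slc2a1* was at 66.7 CPM in cluster 8 of 12W spleen and 57.8 in cluster 11 of 28W spleen, *Slc2a3* at 73.7 and 50.6, *Hif1a* at 144 and 209, and *Pdk1* at 162 and 130.0. Such peaks rest on 14 to 58 UMIs each. These clusters were highest for 8 of 27 and 7 of 24 members with at least 10 CPM, beside 50.3% and 46.8% of all genes, so a peak there was common to many genes. In kidney cluster 2 *Pdk1* was again highest, at 76.5 CPM, but *Slc2a1* at 17.6 and *Slc2a3* at 20.7 were near their library levels. Across clusters the summed uptake genes and the mitochondrial share had a Pearson r of 0.99 over 10 clusters in 12W spleen and 0.95 over 11 in 28W spleen. Without the 2 clusters farthest from the median these were 0.32 and 0.21, so the relation rests on those clusters, and in kidney it was -0.23 over 12. Clusters of 1 library share its preparation, and depth per cell differs with the mitochondrial share.

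Lower glycolysis and lactate genes were higher in clusters with more RNA per cell. Their summed level and the mean UMIs per cell had a Pearson r of 0.89 (Spearman 0.75) in the young spleen, 0.69 (0.21) in the older spleen and 0.79 (0.72) in kidney, over 10, 11 and 12 clusters. Without the 2 farthest clusters r was 0.80, 0.20 and 0.38, so in the 28W libraries it rests mainly on those clusters. With the proliferation list r was 0.29, 0.76 and 0.67, and 0.66, 0.73 and 0.63 without the 2 farthest.

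**Figure D4:**
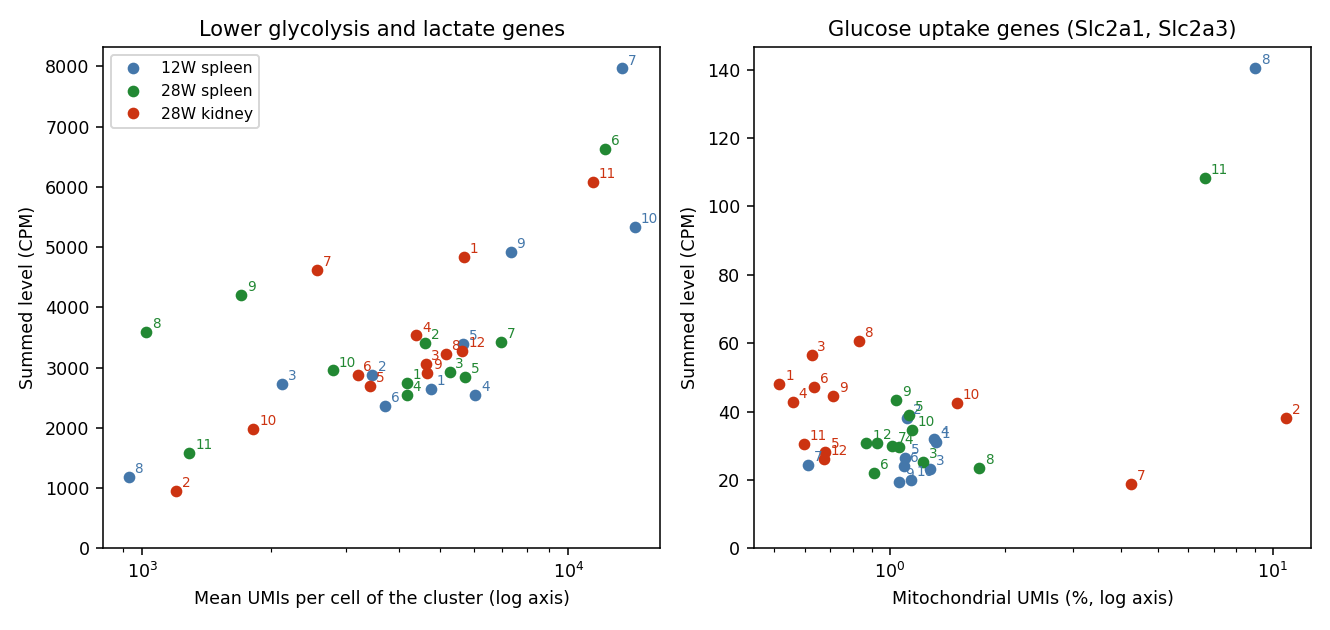
Left, summed level of lower glycolysis and lactate genes (CPM) against mean UMIs per cell of each cluster (log axis). Right, summed level of *Slc2a1* and *Slc2a3* (CPM) against the mitochondrial share of UMIs (log axis). Each numbered point is a cluster coloured by library. Cluster 7 of 12W spleen is highest on the left at 7963 CPM, and cluster 8 of 12W spleen highest on the right at 140 CPM.

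Kidney cluster 7 carried a different set of genes. It held 577 cells with kidney tubule markers at 2927 CPM, 88.8% of all tubule UMIs of the library, beside CD8 T cell markers at 4334 CPM and 4.26% mitochondrial UMIs. The spleens had 0 UMIs for all 6 tubule genes, and at the floor of 3 counts a level of up to 0.0864 CPM in the young and 0.0937 CPM in the older spleen was not detectable. *Ldhb* was at 475 CPM in this cluster and between 1.29 and 30.0 in the other 11, and it took 52.2% of lactate dehydrogenase UMIs here against 5.15% in the library. *Mpc1* was at 328 CPM, *Mpc2* at 467, *Bnip3* at 43.8, *Tpi1* at 233 and *Slc16a1* at 22.9, all the highest of the library. Of the 25 members with at least 10 CPM, 6 peaked there, beside 9.35% of genes. Genes of glucose synthesis, which the tubule of the kidney cortex carries out, were found in the same place. Of 7 listed, 4 reached 10 CPM in either 28W library, and 3 of these were at least 1.5-fold higher by organ, beside 11.3% of all genes. The 7 summed to 17.7, 17.1 and 106 CPM, with 77.3% of kidney UMIs in cluster 7. *Pck1* was at 870.4 CPM there and *Fbp1* at 496. Without clusters of other cell-type markers, the organ log2 ratio of *Ldhb* was -0.85 in place of 1.75, and that of *Bnip3* -0.82 in place of 0.26.

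The summed pentose phosphate genes were highest in a cluster with B cell markers in both 28W libraries, but not in every cluster of that kind. Kidney cluster 12 (184 cells, B cell list 33512 CPM, myeloid list 8639.5, neutrophil list 17854) was highest for 5 of 25 members with at least 10 CPM, beside 10.3% of genes. All 4 pentose phosphate genes were among these, with *Taldo1* at 613 CPM, *Tkt* at 321, *Pgd* at 70.3 and *G6pdx* at 42.4. *Eno3* at 68.4, *Pfkfb4* at 32.7 and *Slc16a3* at 20.2, all under 10 CPM in the library, also peaked there. Cluster 10 of 28W spleen (247 cells, B cell list 23984 CPM) was highest for 5 of 24, beside 6.64%. *Taldo1* was at 529 CPM there, *G6pdx* at 28.9, *Eno3* at 46.3 and *Slc16a3* at 10.1, the last on 7 UMIs, while *Tkt* at 155 and *Pgd* at 34.7 were below their library levels. The summed pentose phosphate level was 1047 CPM in the kidney cluster and 747 in the spleen cluster, against 518 and 462 in their libraries. Kidney cluster 8 and cluster 3 of 12W spleen also carried such markers, the latter beside erythroid transcripts at 37158 CPM. The summed pentose phosphate level there was 396 and 512 CPM, below the rest of their libraries by ratios of 0.747 and 0.944. In kidney cluster 8 (544 cells, B cell list 12874 CPM, CD8 T cell list 2314) *Slc2a1* was at 51.7 CPM and *Hk2* at 21.1, the highest of that library, while *Slc2a3* was at 8.92, so *Slc2a3* took 14.7% of the transporter UMIs against 55.5% in the library. Without clusters of this kind and the tubule cluster, the organ log2 ratio of *Slc2a1* was -0.01 in place of 0.22 and that of *Hk2* -0.91 in place of -0.47.

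**Figure D5:**
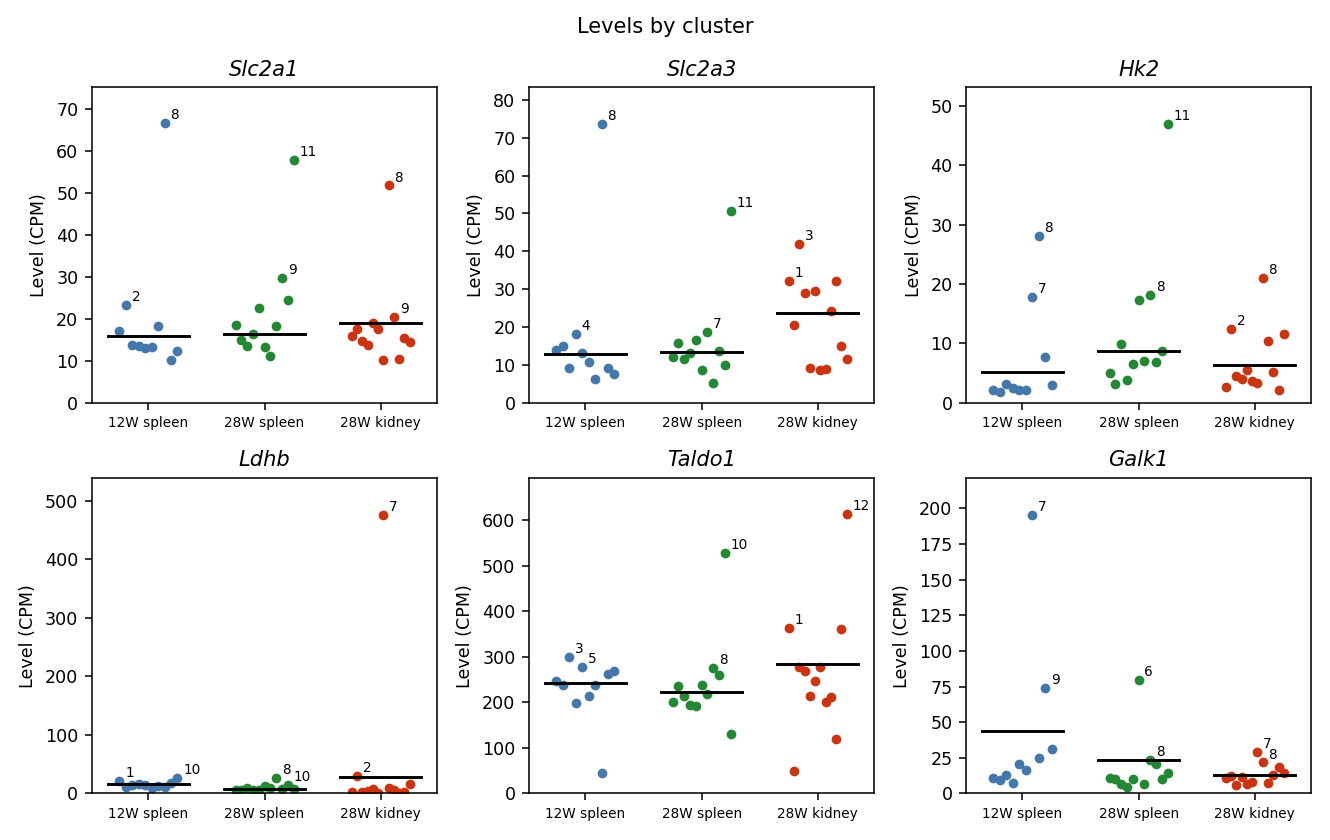
Level by cluster (CPM, linear axes from 0) of *Slc2a1*, *Slc2a3*, *Hk2*, *Ldhb*, *Taldo1* and *Galk1* in the 3 libraries. Each point is a cluster in order of its number, the top points are numbered, and black lines are library levels. A single cluster stands above the rest for *Ldhb* in kidney (cluster 7, 475 CPM) and for *Galk1* in 12W spleen (cluster 7, 196 CPM).

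The members were then set against *Gapdh* over all 33 clusters. The genes most like it by Spearman rho were *Pgk1* at 0.94, *Ldha* at 0.91, *Tkt* at 0.90, *Pgam1* and *Mpc1* at 0.85, *Pkm* at 0.79 and *Eno1* at 0.78. Over 6737 genes the median rho with *Gapdh* was -0.09 and the 90th percentile 0.62. The lower enzymes, *Ldha*, transketolase and *Mpc1* thus varied in parallel. *Pdk1* ran opposite at -0.67, and 7.41% of the 6737 genes had a lower rho. *Hk1* at -0.45, *Hif1a* at -0.42, *Slc2a3* at -0.36 and *Slc2a1* at -0.34 were also below 0. A lower rho than that of *Hk1* was found for 24.7% of genes, and the share was larger for *Hif1a*, *Slc2a3* and *Slc2a1*. Values like these were therefore common among all genes. Over the 23 clusters left without other cell-type, erythroid or mitochondria-rich clusters, *Pgk1* was at 0.89, *Ldha* at 0.89, *Tkt* at 0.91 and *Pdk1* at -0.55, while *Slc2a3* was at -0.11 and *Slc2a1* at -0.19. Clusters of 1 library share their depth and scaling, and genes of high level have less counting error in every cluster.

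None of 16 citric acid cycle genes passed 1.5-fold in either comparison, and their sum was 1600.0, 1374 and 1469 CPM. Among 20 other glycolysis genes found of 22 listed, 7 reached 10 CPM in a compared library, of which 0 were higher and 2 lower by age, and 2 higher and 0 lower by organ. Of 8 other pentose phosphate and ribose genes 5 reached that level, and 0 of them passed 1.5-fold in either comparison. The shares of all genes are those given for the hypoxia list. Among 6 control genes was *Myc*, at 153 CPM in the young spleen, 79.3 in the older spleen and 42.1 in kidney. Its highest level in 12W spleen was 541 CPM in cluster 7, the cluster with the highest *Ldha* and *Galk1*, and in 28W spleen 167 CPM in cluster 6. In kidney it was highest at 199 CPM in cluster 8, which carried B cell markers, whereas *Ldha* was highest in cluster 11 and *Galk1* in cluster 7. *Txnip*, whose product limits glucose uptake, was at 348, 309 and 259 CPM.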

How the data were processed

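Single-cell 5′ libraries (10x Genomics) of sorted PD-1+CD44+CD8+ cells were analysed from 3 groups of 4 labelled samples. For each group the authors deposited a cluster number per barcode and 1 table pooling the samples, with each gene's mean UMI count per cluster as a scaled signal, plus log2 fold changes and adjusted p-values of each cluster against the rest, which were not used. The submitters' processing notes list Cell Ranger 2.1.1, R 3.6.1 and GRCm38. The study's methods name a Cell Ranger vdj release instead, and the annotation release and cell filters are not given in the sources used here. T cell receptor files were not used here, and no column was left unmapped (0).

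Within a column, all values were whole multiples of 1 step (100% within 0.001), so the deposited signal was divided by it to recover whole UMIs, which were summed over clusters and given per 1000000 UMIs. Each table was scaled on its own, and comparison of libraries depends on this conversion. Each group is 1 library, so nothing was tested, and doublets could not be called from cluster means. Log2 ratios carry exact conditional (Clopper-Pearson) 95% limits, levels exact Poisson limits and shares exact binomial limits. All of these, and the floor of 3 counts, cover counting error only. The ratio step was also run on simulated Poisson counts with known folds, for genes with at least 10 CPM. That run checks the computation only. It holds no differences between animals and does not cover members below that level.

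The 33 members, the marker and pathway lists and the cluster rules were chosen with earlier results of these data known. All members are named, other lists are given by counts and sums, and a gene outside the members is named where a member's result turns on it; *Myc*, *Txnip*, *Ndrg1*, *Pck1* and *Fbp1* were picked after their values were seen. A list of other galactose genes is not reported here. Clusters with other cell-type markers had a B cell, myeloid or tubule list of at least 200 CPM and 5 times that of the rest, cycling clusters a proliferation list 3 times the rest, and mitochondria-rich clusters at least 5% mitochondrial UMIs. Erythroid clusters met the first of these rules with the erythroid list. Beyond clusters already flagged for other cell types, these were kidney cluster 2, which was mitochondria-rich, and kidney cluster 11, the cycling one. No spleen cluster was added, so this step kept the cycling cluster of 28W spleen. Alternatives left out each kind of cluster, changed scaling or weighting, or added 1 or 10 CPM. One, which leaves out the highest cluster of each gene, was added after seeing the data. Coordinates are from GENCODE M21 (GRCm38) and promoters from RefSeq (GRCm38.p6). Python 3.11.15, numpy 2.4.6, scipy 1.17.1, pandas 2.3.3 and matplotlib 3.10.9 were used.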

Additional observations from a re-analysis of the deposited data

How the results depend on the processing

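No paired analysis was possible because each group's table pools its samples, and for the same reason no sample could be left out. Of 33 members, 29 to 33 kept the sign of their age ratio under every alternative but equal weighting of clusters, where 27 did, and 25 to 33 kept that of the organ ratio. By age, the 2 members higher became 1 with 1 CPM added, without other cell-type clusters (with or without erythroid ones) or without cycling clusters, and 0 with 10 CPM added, but 3, with *Hif1a*, after scaling to the median gene. The 5 lower became 4 with 1 and 2 with 10 CPM added and 9 without cycling clusters. The age median of -0.12 was -0.056 with cells weighted equally, -0.21 without cycling clusters and -0.018 after scaling to the median gene, which shifts all age ratios by 0.10. The single role group past 1.5-fold by age, *Galk1* alone, became 2 without cycling clusters, where *Tpi1* (-0.94), *Pgam1* (-0.60), *Ldha* (-0.61) and *Tkt* (-0.62) also passed 1.5-fold and *Hk2* (0.32) did not.

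By organ, the 5 higher became 3 with clusters weighted equally or without other cell-type clusters, 2 when erythroid clusters were left out too, and 1, *Ldhb*, with 10 CPM added. They became 4 after median scaling, with T cell receptor, mitochondrial and ribosomal genes out of the total or without each gene's highest cluster, 6 with cells weighted equally, and 7 without cycling clusters, where *Pfkm* (0.60) and *Tpi1* (0.64) were gained. The 1 lower became 0 with cells weighted equally, with 10 CPM added or without cycling clusters, 2 after median scaling or without mitochondria-rich clusters, and 3 with those genes out of the total or without each gene's highest cluster. It became 6 without other cell-type clusters, with *Eno3* (-0.67) and *Slc16a1* (-0.71) among them, and 7 without erythroid ones too. The organ median of 0.11 was -0.063 with those genes out of the total, -0.0060 and -0.080 without other cell-type clusters and with erythroid ones also left out, and 0.26 without cycling clusters. The 1 role group past 1.5-fold by organ became 0 with cells or clusters weighted equally, 10 CPM added or cycling clusters left out, and 2 without other cell-type and erythroid clusters. *Ldhb* by organ turned from 1.75 to -0.85, -1.17 without erythroid clusters as well and -0.62 without its highest clusters. *Galk1*, and so the galactose group, turned from -0.86 to 0.40 without cycling clusters and 0.41 without its highest clusters. Each turn follows from leaving out the cluster that held most UMIs of the gene in 1 library, and the cause of the other shifts was not tested. Requiring 20 UMIs removed no member. The 6 genes under 10 CPM in every library (*Hk2*, *Pfkm*, *Aldoc*, *Slc16a3*, *Bnip3* and *Pfkfb4*) rest on 19 to 282 UMIs per library, which limits their ratios.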
